A study of Homo sapiens with 12 samples.

Results

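Squamous epithelia are specified by a small group of DNA-binding proteins, and 9 of their genes are described here in esophageal squamous carcinoma cells treated with the kinase inhibitor THZ1: TP63, SOX2, KLF5, GRHL1, GRHL2, GRHL3, ZNF750, TFAP2A and TFAP2C. They were chosen by gene symbol, and each has 1 row among the 57755 gene identifiers of every deposited table. The data are RNA-seq values of 12 libraries from KYSE510 and TE7, both human cell lines from esophageal squamous cell carcinoma, with 1 library per line and condition. The conditions were DMSO vehicle, a time course of 50 nM THZ1 sampled at 2, 4, 6 and 12 h, and a single dose of 200 nM sampled at 6 h. KYSE510 was kept in RPMI-1640 and TE7 in DMEM, both with serum, and polyadenylated RNA was sequenced. THZ1 binds CDK7 covalently and reaches CDK12 and CDK13 at higher doses, and the series title names super-enhancer-associated oncogenes as its subject. Each DMSO library is titled 0 h but carries a time label of 12 h, and no DMSO library accompanies 2, 4 or 6 h, so hours of drug and hours of handling cannot be told apart. The lines are established cultures, nothing in the labels describes separate cultures within a line, and each line is its own model.

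In stratified epithelium the p63 protein, from TP63, holds basal cells in the squamous lineage and binds enhancers together with SOX2 and KLF5. Grainyhead-like factors (GRHL1, GRHL2 and GRHL3) activate genes of epithelial junctions and of the surface barrier, AP-2 factors (TFAP2A and TFAP2C) act in ectodermal and squamous progenitors, and ZNF750 works below p63 in differentiation. Many such genes lie near super-enhancers, large enhancer clusters whose transcription depends on kinases of the initiation and elongation machinery.

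Values are FPKM, fragments scaled by transcript length and by the library's mapped fragments, as the authors deposited them. Differences are of log2(FPKM + 1), as the mean over both lines (n = 2) ± the standard error of limma, a linear model fitted over 15610 genes, with p-values adjusted over all of them by Benjamini-Hochberg and called under 0.05. The pseudocount of 1 makes folds of low genes look smaller than they are. A lower FPKM in bulk RNA cannot tell fewer expressing cells from less RNA per cell. FPKM is also relative to each library's total, so a fall shared equally by all transcripts is not seen.

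The libraries had summed FPKM between 383975 and 729515, with 11685 to 13982 genes at 1 FPKM or more. The 200 nM library had the lowest sum of its line. In KYSE510 it was 383975 against 535976 at 50 nM and 6 h, and in TE7 459201 against 650109. The part of these sums in the differences at 200 nM was not tested. Fragment totals of the libraries were not analysed here, and the authors' 95% bounds for the median gene reached 7.28% to 10.6% above the value. KRT5, a basal keratin that marks squamous cells, stood at 946 to 1928 FPKM in all 12 libraries. Of 10 leukocyte and endothelial genes PECAM1 had no row. The 9 with a row, PTPRC, CD3E and the like, were under 1 FPKM except CD68. The mesenchymal list summed to at most 115.7 FPKM in TE7. Some libraries stand apart from their line. Pearson's r across genes was 0.879 between the library labelled KYSE510 DMSO and the KYSE510 library at 2 h, and 0.976 between the same conditions of TE7. It held 14.45 FPKM of KRT6A against 930 to 1809 in the other KYSE510 libraries, 1.10 of PKP1 against 24.0 to 104.7, and 259.7 of SPARC, a matrix gene, against at most 8.67. The libraries at 200 nM correlated at 0.855 in KYSE510 and 0.865 in TE7 with the 50 nM library at the same 6 h. The library labelled KYSE510 200 nM held 2.62 FPKM of KRT14 against 514.3 at 50 nM, 7.63 of THY1 against 0 and 20.0 of CDH2 against 1.74. In TE7 the same doses gave 136.5 and 200.8 FPKM of KRT14, THY1 at 0 in both and 0.245 and 0.257 of CDH2. Pearson's r of the library labelled KYSE510 DMSO was 0.819 to 0.879 with the other KYSE510 libraries and 0.770 to 0.829 with those of TE7, and that of the library labelled KYSE510 200 nM was 0.819 to 0.865 and 0.768 to 0.855. Whether these libraries hold the cells and treatment of their labels, and their part in the results below, was not tested, so every KYSE510 contrast with DMSO or with 200 nM depends on those labels.

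**Figure D1:**
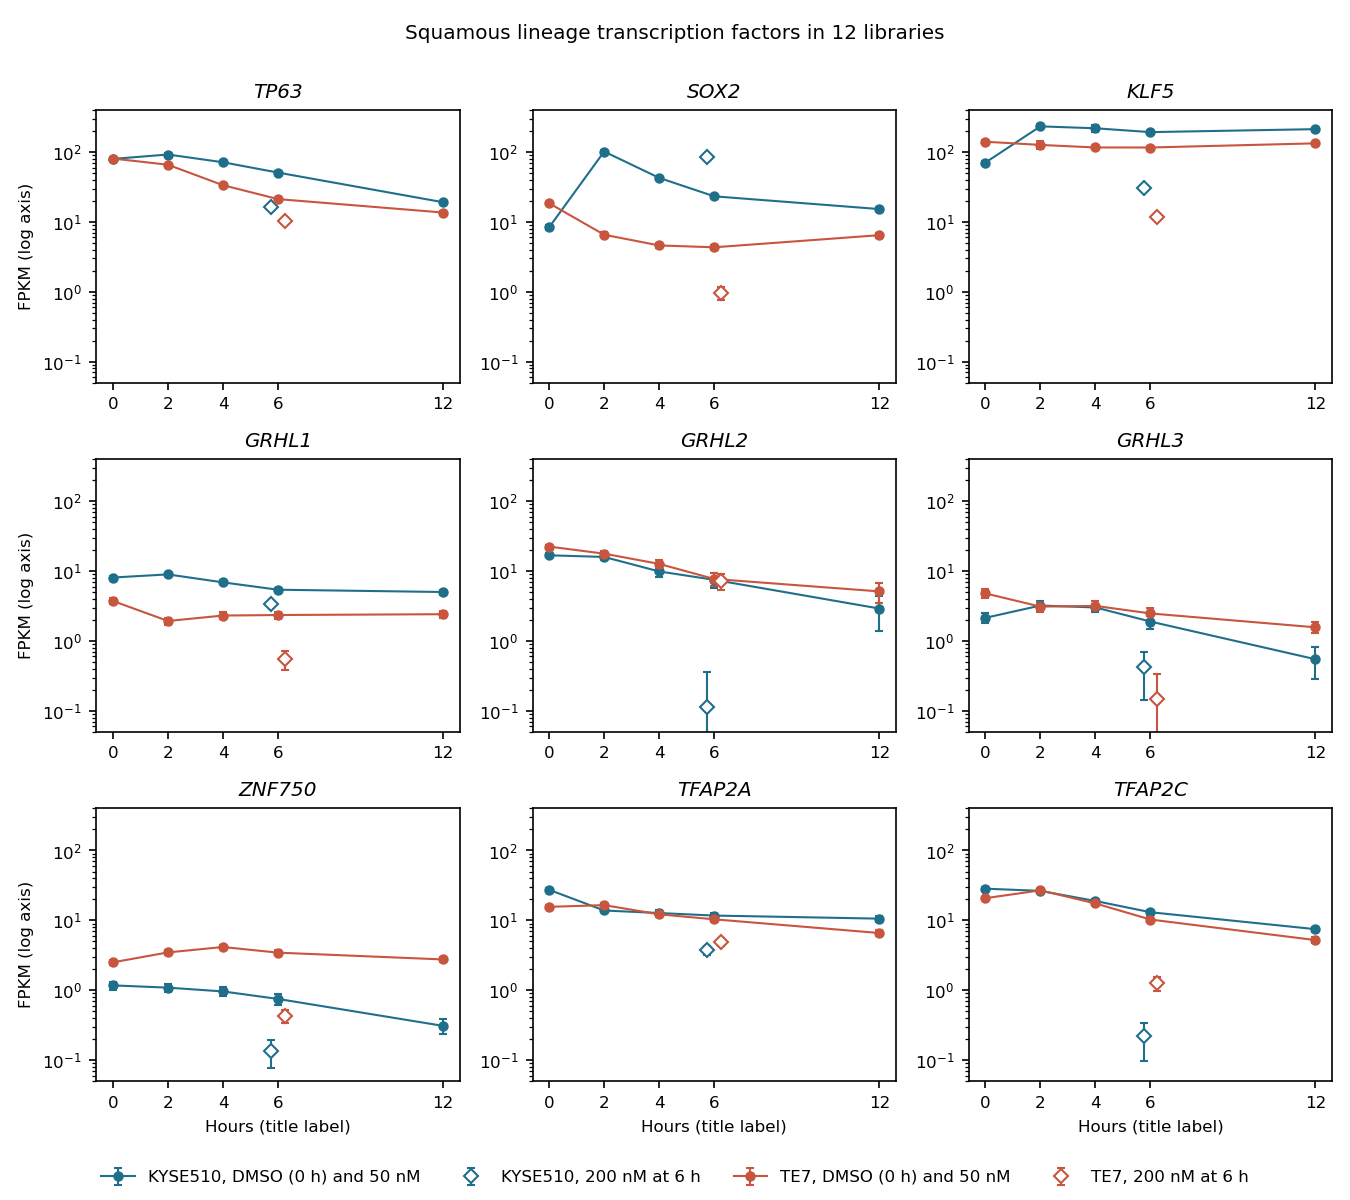
FPKM of the 9 factors on log axes against hours as titled, in KYSE510 (blue) and TE7 (red). Circles joined by lines are DMSO at 0 h and THZ1 at 50 nM, diamonds are 200 nM at 6 h, and bars are the authors' 95% bounds for a single library. TP63, GRHL2 and TFAP2C descend in both lines at 50 nM, KLF5 is lowest at the diamonds, and treated SOX2 points lie above the DMSO point in KYSE510 and below it in TE7.

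In DMSO the most abundant factor was KLF5 in TE7 and TP63 in KYSE510, and ZNF750 was the lowest in both. In TE7 the order of levels per transcript length was KLF5 at 140.6 FPKM, TP63 at 80.8, GRHL2 at 22.5, TFAP2C at 20.8, SOX2 at 18.5, TFAP2A at 15.6, GRHL3 at 4.80, GRHL1 at 3.74 and ZNF750 at 2.51. Of these neighbours, GRHL2 and TFAP2C, and GRHL3 and GRHL1, had overlapping 95% bounds. The library labelled KYSE510 DMSO gave TP63 at 79.7 FPKM, KLF5 at 70.6, TFAP2C at 28.4, TFAP2A at 27.4, GRHL2 at 16.9, SOX2 at 8.37, GRHL1 at 8.10, GRHL3 at 2.14 and ZNF750 at 1.17. Here TFAP2C and TFAP2A, and SOX2 and GRHL1, had overlapping bounds. All 9 passed the filter of at least 1 FPKM in at least 2 libraries: TP63, KLF5 and TFAP2A reached 1 FPKM in 12 libraries, SOX2, GRHL1, GRHL2 and TFAP2C in 11, GRHL3 in 9 and ZNF750 in 7.

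TP63 encodes p63, the p53-family factor on which squamous identity rests. On hg19 the gene spans chromosome 3, 189349205 to 189615068 (ENSG00000073282), and the gene row sums its long and short N-terminal isoforms. In KYSE510 it stood at 79.7 FPKM in DMSO, then 92.2, 71.4, 50.9 and 19.1 FPKM at 2, 4, 6 and 12 h of 50 nM, and 16.6 at 200 nM. In TE7 the same order gave 80.8, then 65.8, 33.6, 21.2 and 13.6, and 10.2 FPKM. The DMSO levels were alike, though the library labelled KYSE510 DMSO stands apart from its line. From 2 h of 50 nM on both lines descended at every step, with TE7 lower at each treated point. TP63 fell by 2.24 ± 0.30 at 12 h against DMSO (adjusted p = 0.00226), to 24.0% of DMSO in KYSE510 and 16.9% in TE7. The fall from 2 to 12 h gave -2.20 ± 0.30 (adjusted p = 0.00392), with -2.21 in KYSE510 and -2.19 in TE7. This difference uses no DMSO library, but its standard error rests on the spread of all 12 libraries. The call from 2 to 12 h was lost without the TE7 library at 2 h. At 6 h the difference of -1.26 ± 0.30 against DMSO missed the threshold (adjusted p = 0.0553), and it passed when either 200 nM library, the library labelled KYSE510 DMSO, or the 3 libraries that stand apart were left out. The 12 h call held in all 18 alternatives, with differences between -2.66 and -1.64.

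SOX2, an HMG-box factor often amplified together with TP63 on the long arm of chromosome 3 in this carcinoma, had another course. Its row lies at chromosome 3, 181429714 to 181432221 (ENSG00000181449). KYSE510 held 8.37 FPKM in DMSO, then 101.7, 42.7, 23.25 and 15.3 over the hours of 50 nM, and 84.9 FPKM at 200 nM. TE7 held 18.5 FPKM in DMSO, then 6.55, 4.60, 4.33 and 6.46, and 0.975 FPKM at 200 nM. Every treated KYSE510 library was above its DMSO library and every treated TE7 library below its own. The mean differences against DMSO lay between -0.30 and 1.04 with a standard error of 1.27, so no comparison of conditions called SOX2, and under median-of-ratios scaling the difference at 12 h turned from -0.30 to 0.27 and that at 200 nM from -0.05 to 0.68. Within KYSE510 at 50 nM, without the DMSO library, SOX2 was 2.66 lower at 12 h than at 2 h on the log2 scale, and in TE7 0.02 lower. Without both KYSE510 libraries that stand apart, an alternative added after the data were seen, the 200 nM difference was that of TE7, -3.30 (adjusted p = 0.0138, with the spread pooled over the other libraries).

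SOX2 lies inside the much longer row of SOX2-OT, a non-coding transcript at 180707558 to 181554668. In KYSE510 SOX2-OT stood at 0.262 FPKM in DMSO, 5.24, 3.94, 1.70 and 0.486 at 50 nM and 28.5 at 200 nM. In TE7 it stood at 1.24, then 0.404, 0.692, 0.701 and 0.904, and 0.0523 FPKM. The rows were high and low in the same KYSE510 libraries, and both had their lowest TE7 value at 200 nM. The sources used here do not give the strand setting of the counting, so fragments of overlapping rows cannot be told apart.

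**Figure D2:**
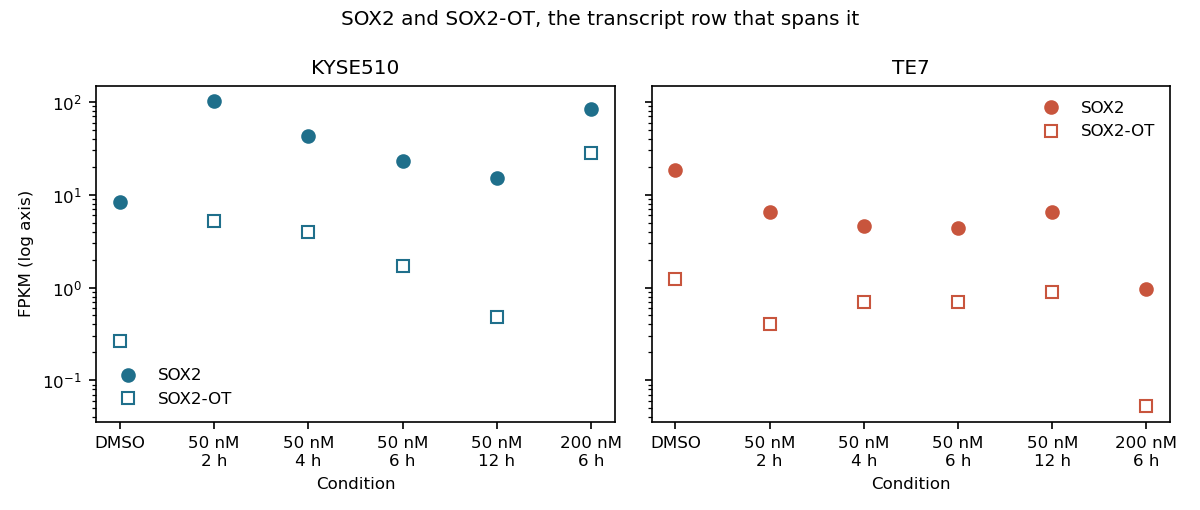
FPKM (log axis) of SOX2 (filled circles) and of SOX2-OT (open squares) in the 6 conditions of KYSE510 (left) and TE7 (right), 1 library per point. In KYSE510 SOX2 runs from 8.37 in DMSO to 101.7 at 2 h and 84.9 at 200 nM, and in TE7 from 18.5 in DMSO to 0.975 at 200 nM.

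KLF5, a zinc-finger activator of basal epithelial and proliferation genes, was the most abundant of the 9 in 10 of the 12 libraries. The gene lies at chromosome 13, 73629114 to 73651676 (ENSG00000102554). In KYSE510 it stood at 70.6 FPKM in DMSO, then 233.3, 219.0, 192.9 and 212.8 at 50 nM, and 30.3 at 200 nM. In TE7 it stood at 140.6 FPKM, then 126.5, 116.3, 116.2 and 133.3, and 11.8. The 4 libraries at 50 nM were level in each line, and the 200 nM library was the lowest of its line in both. From 50 to 200 nM at 6 h KLF5 fell by 2.91 ± 0.47 (adjusted p = 0.00464), by 2.63 in KYSE510 and 3.19 in TE7, which left 15.7% and 10.2% of the FPKM at 50 nM. That call held under the other scaling (-2.29, adjusted p = 0.0137) and without either 200 nM library, and was lost without the KYSE510 library at 50 nM and 6 h (adjusted p = 0.0516). No comparison of 50 nM with DMSO called KLF5, with differences of 0.58 to 0.78, but without the TE7 DMSO library the contrast rests on the library labelled KYSE510 DMSO and gave 1.69 at 12 h (adjusted p = 0.00393). From 2 to 12 h of 50 nM the difference was -0.03 ± 0.47 (adjusted p = 0.976).

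GRHL1, GRHL2 and GRHL3 are the mammalian grainyhead-like factors, of which GRHL2 is best known for keeping epithelial adhesion genes on. Their rows lie at chromosome 2, 10085341 to 10142411 (GRHL1, ENSG00000134317), chromosome 8, 102504660 to 102681954 (GRHL2, ENSG00000083307) and chromosome 1, 24645812 to 24690972 (GRHL3, ENSG00000158055). GRHL2 in KYSE510 stood at 16.9 FPKM in DMSO, then 16.0, 9.90, 7.51 and 2.92 at 50 nM, and 0.112 at 200 nM. In TE7 it stood at 22.5 FPKM, then 17.8, 12.7, 7.72 and 5.12, and 7.21 at 200 nM. At 50 nM the lines descended side by side, while at 200 nM KYSE510 was under 1 FPKM and TE7 was within the authors' bounds of its 50 nM level. GRHL2 fell by 2.06 ± 0.63 at 12 h (adjusted p = 0.0434) and by 2.76 ± 0.63 at 200 nM against DMSO (adjusted p = 0.0113). The 12 h call held in 4 of 18 alternatives, all of which left out a 200 nM library or the libraries that stand apart. It was lost when any single DMSO or 50 nM library was left out, and adjusted p ranged from 0.0009 to 0.18. The call against DMSO at 200 nM was lost without the library labelled KYSE510 DMSO (adjusted p = 0.0568) and under median-of-ratios scaling, which sets the typical gene of each library equal (adjusted p = 0.0635). The difference from 50 to 200 nM, -1.51 ± 0.63, did not pass (adjusted p = 0.118): it was -2.94 in KYSE510 and -0.09 in TE7.

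GRHL3, the family member of the surface barrier, held 2.14 FPKM in KYSE510 DMSO, 3.22, 3.02, 1.90 and 0.548 at 50 nM, and 0.42 at 200 nM. In TE7 it held 4.80 FPKM, then 3.11, 3.18, 2.48 and 1.57, and 0.146. Its lowest 50 nM level was at 12 h in both lines. GRHL3 fell by 1.10 ± 0.32 at 12 h (adjusted p = 0.0387), a call kept in 5 of 18 alternatives with adjusted p between 0.0061 and 0.214, and lost when any single 50 nM library or the TE7 DMSO library was left out. At 200 nM it fell by 1.74 ± 0.32 against DMSO (adjusted p = 0.00488), a call kept in all 17 alternatives, and by 1.32 ± 0.32 against 50 nM (adjusted p = 0.0226). The last call was lost without the 50 nM library at 6 h of KYSE510 (adjusted p = 0.139) or TE7 (0.124), or the TE7 200 nM library (0.0716). The neighbouring gene STPG1 overlaps its row and held 5.62 FPKM in DMSO and 0.607 at 12 h in KYSE510, and 5.79 and 0.653 in TE7, and fragments of the overlap cannot be assigned. GRHL1 held 8.10, 8.98, 6.91, 5.42 and 5.03 FPKM in KYSE510 from DMSO to 12 h and 3.41 at 200 nM. In TE7 it held 3.74, 1.93, 2.31, 2.35 and 2.42, and 0.556. Among the comparisons of conditions GRHL1 passed the threshold only at 200 nM against DMSO, where it fell by 1.33 ± 0.29 (adjusted p = 0.00889), or by 0.72 under median-of-ratios scaling (adjusted p = 0.116). Thus GRHL2 and GRHL3 passed at 12 h and GRHL1 did not, with -0.53 ± 0.29 (adjusted p = 0.198); the difference between these genes was not tested.

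ZNF750, a zinc-finger factor of differentiation below p63, was the lowest of the 9 in 5 of the 6 KYSE510 libraries. Its row lies at chromosome 17, 80787311 to 80798454 (ENSG00000141579). KYSE510 held 1.17, 1.09, 0.96, 0.75 and 0.309 FPKM from DMSO to 12 h and 0.136 at 200 nM. TE7 held 2.51, 3.48, 4.15, 3.45 and 2.76 FPKM, and 0.427 at 200 nM. The KYSE510 libraries descended with the hours, while each TE7 library at 50 nM was above the TE7 DMSO library. ZNF750 fell by 1.12 ± 0.33 at 200 nM against DMSO (adjusted p = 0.0287) and by 1.13 ± 0.33 against 50 nM (adjusted p = 0.0387). The first call was lost in 7 of 17 alternatives, including without the library labelled KYSE510 DMSO (adjusted p = 0.12), the TE7 200 nM library (0.115), or the 2 h library of KYSE510 (0.0511) or TE7 (0.0509). The second was lost in 10 of 17, among them without the TE7 200 nM library (adjusted p = 0.122) and without any single 2, 4 or 6 h library at 50 nM. ZNF750 sits inside the row of TBCD, which stood at 19.2 to 59.6 FPKM and was highest at 200 nM in both lines.

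TFAP2A and TFAP2C encode AP-2 factors that act in epidermal and squamous progenitors. TFAP2C, at chromosome 20, 55204358 to 55214339 (ENSG00000087510), held 28.4, 26.4, 18.9, 13.1 and 7.48 FPKM in KYSE510 from DMSO to 12 h and 0.220 at 200 nM. In TE7 it held 20.8, 26.9, 17.5, 10.3 and 5.22 FPKM, and 1.28 at 200 nM. The lines lay close to each other at each hour, and the 200 nM library was the lowest in both. TFAP2C fell by 3.93 ± 0.34 at 200 nM against DMSO (adjusted p = 0.000457) and by 2.92 ± 0.34 against 50 nM (adjusted p = 0.00138), by 3.53 in KYSE510 and 2.31 in TE7. Both calls held in all 17 alternatives, and without the library labelled KYSE510 200 nM the fall against 50 nM was 2.34. At 12 h it fell by 1.80 ± 0.34 against DMSO (adjusted p = 0.0071) and by 1.93 ± 0.34 against 2 h (adjusted p = 0.00813). The first call was lost without the TE7 12 h library (adjusted p = 0.0603). The second was lost without that library (adjusted p = 0.0689), the KYSE510 library at 2 h (0.0657) or the TE7 library at 2 h (0.0772).

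TFAP2A, at chromosome 6, 10393419 to 10419892 (ENSG00000137203), held 27.4 FPKM in KYSE510 DMSO, then 13.8, 12.7, 11.7 and 10.6 at 50 nM, and 3.70 at 200 nM. TE7 held 15.6, then 16.5, 12.2, 10.3 and 6.59, and 4.98. In KYSE510 the step lay between the library labelled KYSE510 DMSO, which stands apart, and 2 h. Little followed at 50 nM, while in TE7 the level went down from 2 h on. TFAP2A fell by 1.21 ± 0.31 at 12 h (adjusted p = 0.022), a call lost without the library labelled KYSE510 DMSO (-0.85, adjusted p = 0.0991) or the TE7 library at 12 h (adjusted p = 0.15). At 200 nM it fell by 2.03 ± 0.31 against DMSO (adjusted p = 0.00208), kept in all 17 alternatives, and by 1.18 ± 0.31 against 50 nM (adjusted p = 0.0272), kept in 9 of 17. The last call was lost without either 6 h library at 50 nM (adjusted p = 0.153 for KYSE510, 0.139 for TE7), either 4 h library (0.0541, 0.0539) or the library labelled KYSE510 200 nM (0.103). From 2 to 12 h the difference of -0.78 ± 0.31 did not pass (adjusted p = 0.109). The antisense row TFAP2A-AS1 inside it held 0.197 to 1.42 FPKM.

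RefSeq promoter windows, from 250 bases before to 50 after a transcript start on GRCh38.p14, matched 6 of the 9 genes: TP63, SOX2, KLF5, GRHL1, GRHL3 and TFAP2A. Stretches of 150 bases that end at the base before a start are printed because their genes gave different results: TFAP2A fell at both doses, KLF5 fell at 200 nM and SOX2 passed in no comparison of conditions. Capitals mark a TATA box (TATAAA) for TFAP2A, an AP-2 motif (GCCNNNGGC) for SOX2 and overlapping CACCC-type KLF motifs (CCNCNCCC) for KLF5, searched on both strands. Only the motif named for each gene is in capitals, and matches of the others are left in lower case.
TFAP2A: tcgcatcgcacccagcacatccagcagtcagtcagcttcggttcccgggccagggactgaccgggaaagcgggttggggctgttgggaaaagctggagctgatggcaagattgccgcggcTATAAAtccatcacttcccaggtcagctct
SOX2: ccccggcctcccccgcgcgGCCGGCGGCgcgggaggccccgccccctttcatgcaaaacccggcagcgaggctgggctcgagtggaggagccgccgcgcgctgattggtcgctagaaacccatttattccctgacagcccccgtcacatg
KLF5: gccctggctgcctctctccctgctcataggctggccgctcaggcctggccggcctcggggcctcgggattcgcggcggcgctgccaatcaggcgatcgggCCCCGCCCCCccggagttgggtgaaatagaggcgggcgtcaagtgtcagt
They are chr6:10419660-10419809 on the minus strand, chr3:181711775-181711924 on the plus strand and chr13:73058855-73059004 on the plus strand. The TATA box begins at -30 from this TFAP2A start and TATAAA occurs in 11.5% of 35116 RefSeq windows. The AP-2 letters begin at -131 from the SOX2 start and occur in 23.2% of windows, and the KLF letters begin at -50 and -48 from this KLF5 start and occur in 56.2%. The grainyhead letters AACCNGTT, in 1.73% of windows, and the AP-1 letters TGANTCA, in 7.71%, were found in none of the 9 member windows. The AP-2 letters were also in 1 of the GRHL3 windows, and TATAAA also in that of TP63 and 1 of KLF5. The SOX letters ACAAAG, in 16.1% of windows, were in that of SOX2. The KLF letters were in 6 of the 9 member windows: those of SOX2 and GRHL1, each of TFAP2A, 1 of GRHL3 and 1 of KLF5. They do not set KLF5 apart from SOX2 or TFAP2A. These are matches of letters, and gene-level FPKM does not show which start was used.

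The time course was read next against all genes. At 2, 4 and 6 h of 50 nM 0 of the 9 factors passed the threshold by limma, with 0, 1 and 3 of them at an unadjusted p under 0.05, while 0.0128%, 0.0769% and 4.71% of the 15610 genes were called in either direction. At 12 h 5 of the 9 were called lower (TP63, GRHL2, GRHL3, TFAP2A and TFAP2C) and 0 higher, against 25.2% of all genes lower and 3.27% higher. The median difference of the 9 was -1.10, of all genes -0.42, and within the lines it was -1.02 against -0.27 in KYSE510 and -1.18 against -0.52 in TE7. Median-of-ratios scaling moved the median of all genes at 12 h from -0.42 to 0.03 and the calls from 510 higher and 3929 lower to 1803 and 1677. Under it only TP63 of the 9 was called at 12 h, with TFAP2C next at -1.23 (adjusted p = 0.0578) and the median of the 9 at -0.64. The 12 h count was 1 without the TE7 library at 12 h and 3 without the library labelled KYSE510 DMSO (TP63, GRHL3 and TFAP2C), and stayed at 5 without either 200 nM library or without both KYSE510 libraries that stand apart, where 6853 of all genes were lower and 1319 higher. From 2 to 12 h, TP63 and TFAP2C were called lower, against 20% of all genes lower and 1.88% higher. Without both KYSE510 libraries that stand apart this count was 6, with GRHL2, GRHL3, ZNF750 and TFAP2A added, while all genes called went from 3419 to 8608. It was 0 without the TE7 library at 2 h and 1 without the KYSE510 one.

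**Figure D3:**
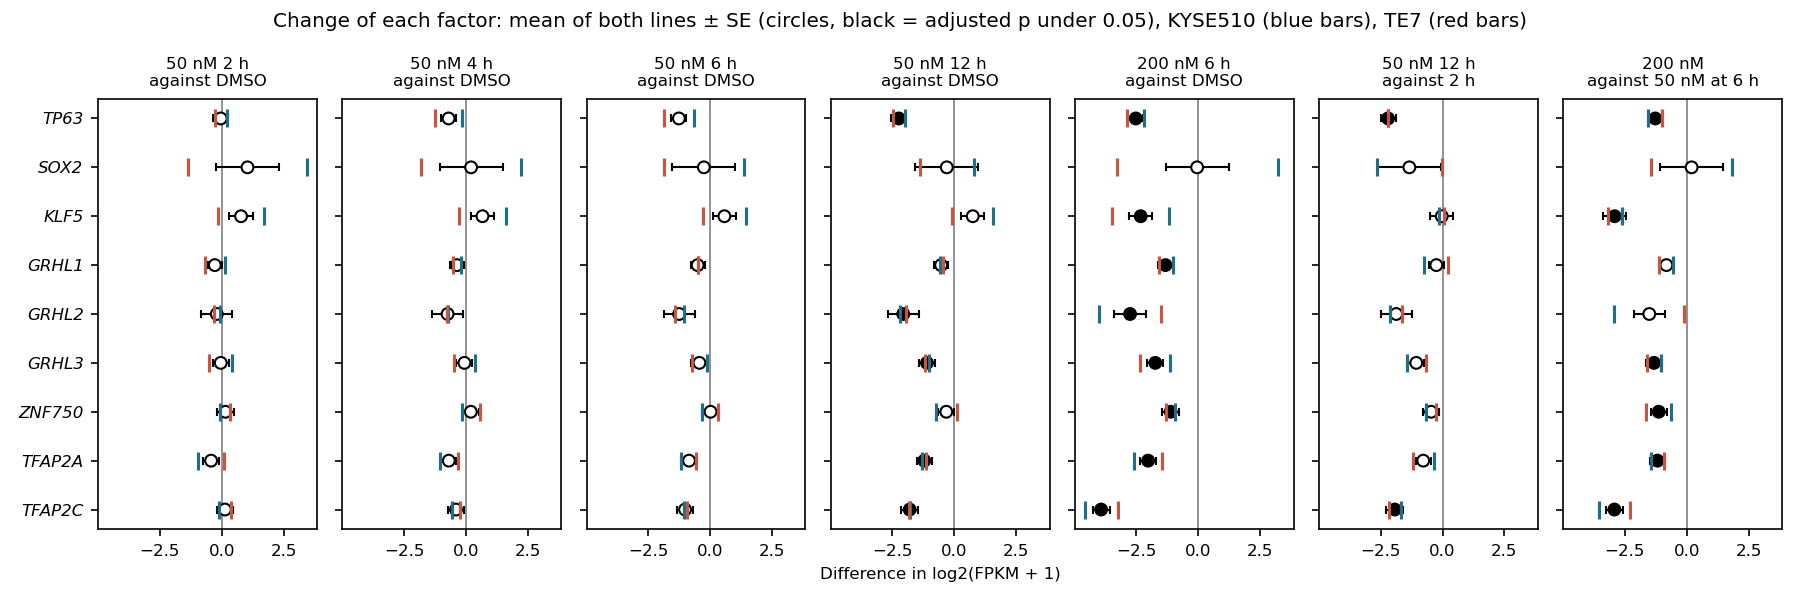
Difference in log2(FPKM + 1) of the 9 factors in 7 comparisons, as the mean of both lines ± SE (circles, black where the adjusted p is under 0.05) with the value of KYSE510 (blue bar) and TE7 (red bar). Black circles number 5 at 12 h and 8 at 200 nM against DMSO, and the lines lie far apart for SOX2 in each comparison with DMSO.

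The dose comparison set 200 nM against 50 nM at the same 6 h. Its differences use no DMSO library, but their standard errors and p-values rest on the spread of all 12 libraries. TP63, KLF5, GRHL3, ZNF750, TFAP2A and TFAP2C were called lower, 6 of 9 with 0 higher, against 21.9% of all genes lower and 2.94% higher. TP63 fell by 1.27 ± 0.30 (adjusted p = 0.0182), with 50.9 and 16.6 FPKM in KYSE510, and 21.2 and 10.2 in TE7, a call lost without the KYSE510 library at 50 nM and 6 h (-0.93, adjusted p = 0.171). GRHL1, at -0.82 ± 0.29, did not pass (adjusted p = 0.0708). The median of the 9 was -1.27 against -0.46 for all genes. Under median-of-ratios scaling the median of all genes was -0.01, calls went from 459 higher and 3412 lower to 1382 and 1365, and KLF5 and TFAP2C were the members called. Without the library labelled KYSE510 200 nM, 5 were called (TP63, KLF5, GRHL3, ZNF750 and TFAP2C). Without the KYSE510 library at 50 nM and 6 h only TFAP2C was, and without the TE7 one TP63, KLF5 and TFAP2C were. Without both KYSE510 libraries that stand apart, where the 200 nM value is that of TE7, 7 were called (GRHL1 added), against 6245 lower and 1456 higher of all genes. Against DMSO, 8 of 9 were called lower at 200 nM, all but SOX2, against 35.3% of all genes lower and 3.22% higher. There the scaling turned 503 higher and 5503 lower calls into 1898 and 1890 and left 5 of the 9, TP63, KLF5, GRHL3, TFAP2A and TFAP2C. Leaving out both KYSE510 libraries that stand apart gave all 9, with 8245 lower and 1178 higher of all genes. The contrasts with DMSO share the same control libraries and are given side by side only.

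The lines differed in some factors over all conditions. By the same model KYSE510 was higher than TE7 in SOX2 by 2.40 ± 0.74 (adjusted p = 0.0295), in GRHL1 by 1.20 ± 0.16 (adjusted p = 0.00132) and in TP63 by 0.64 ± 0.17 (adjusted p = 0.0175). ZNF750 was lower in KYSE510, at -1.06 ± 0.19 (adjusted p = 0.00341). The other 5 factors did not pass, with adjusted p from 0.115 to 0.803. KLF5, at 0.58, was called in 5 of 18 alternatives, at 0.89 without the library labelled KYSE510 DMSO (adjusted p = 0.00164) or the TE7 one (0.00162), and at 0.80 without both KYSE510 libraries that stand apart, where 5 factors were called. Among all genes 17.5% were higher and 28.9% lower in KYSE510, so 4 calls in 9 are near that background, and libraries of a line are not independent cultures. Every KYSE510 library was above the TE7 library of its condition for GRHL1 and below it for ZNF750. TP63 was not higher in DMSO, at 79.7 against 80.8 FPKM, and SOX2 was lower there, at 8.37 against 18.5. The SOX2 call was lost in 9 of 18 alternatives, among them without any single library of 2, 4 or 6 h at 50 nM or of 200 nM. The TP63 call was lost in 5, without any single 4 or 6 h library at 50 nM and without condition terms, and the GRHL1 and ZNF750 calls were kept in all 18. The rate of change per hour was fitted as a straight line, with DMSO at 0 h as titled. It differed between lines in 0 of the 9 by limma, with 0 at an unadjusted p under 0.05, against 0.0705% of all genes. A straight line does not capture a rise followed by a fall, so whether the lines share a time course was not settled. The SOX2 slopes were -0.048 in KYSE510 and -0.082 in TE7 from 0 to 12 h, and -0.241 and 0.013 from 2 to 12 h. The mean of the 4 libraries at 50 nM less DMSO, set side by side after the data were seen, was 1.59 in KYSE510 and -0.19 in TE7 for KLF5, and 1.96 and -1.61 for SOX2. Each line has 1 DMSO library, and that of KYSE510 is one that stands apart, so the difference was not tested.

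Other regulators of the squamous programme were read from a list of 30, of which 27 passed the filter on low values. Against DMSO, 11 of them were called lower and 0 higher at 12 h, with a median of -0.72, beside 25.2% lower, 3.27% higher and a median of -0.42 for all genes. BNC1, basonuclin, differed by -2.94 ± 0.87 (adjusted p = 0.039; -1.83 and 0.131 without both KYSE510 libraries that stand apart, and 0.0558 under median-of-ratios scaling), RARG, a retinoic acid receptor, by -2.80 ± 0.30 (adjusted p = 0.00141), and ELF3, an epithelial ETS factor, by -2.72 ± 0.41 (adjusted p = 0.00324). ELF3 stood at 291.2 FPKM in the library labelled KYSE510 DMSO, which stands apart, and at 65.5 at 2 h and 23.7 at 12 h in KYSE510. In TE7 it stood at 68.8 in DMSO, 45.6 at 2 h and 18.0 at 12 h. TP73, the closest relative of TP63, stood at 7.12 in DMSO and 1.08 at 12 h in KYSE510, and at 15.0 and 1.14 in TE7. From 50 to 200 nM 12 of the 27 were called lower and 0 higher, with a median of -0.97, beside 21.9% lower, 2.94% higher and a median of -0.46 for all genes. Under median-of-ratios scaling the counts were 8 lower and 2 higher at 12 h (median -0.20), and 5 lower and 1 higher from 50 to 200 nM (-0.58). Both KYSE510 libraries that stand apart were then left out, a choice made for this and the next lists after the data were seen. The median of the 27 was then -0.89 at 12 h, beside -0.49 for all genes. From 50 to 200 nM it was -1.16, beside -0.41 for all genes. EHF, another ETS factor, stood at 25.8 and 3.18 FPKM in KYSE510, and at 16.3 and 1.46 in TE7 (-2.75 ± 0.21, adjusted p = 0.000547).

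The basal keratinocyte genes include many targets of p63. Of 30 tested, 3 were called lower at 12 h against DMSO (KRT15, NGFR and DST) and 1 higher (COL17A1, at 1.65 ± 0.47, adjusted p = 0.0352), with a median of 0.21, beside 25.2% lower, 3.27% higher and a median of -0.42 for all genes. COL17A1, a hemidesmosome collagen, stood at 24.7 FPKM in DMSO, 110.0 at 2 h and 161.5 at 12 h in KYSE510, and at 165.6, 186.2 and 258.4 in TE7. Its difference was 2.66 in KYSE510, against the DMSO library that stands apart, and 0.64 in TE7, and it was 0.65 without both KYSE510 libraries (adjusted p = 0.00222). KRT5 stood at 1879 FPKM at 12 h against 1474 in DMSO in KYSE510, and at 1616 against 1928 in TE7, while TP63 was at 24.0% and 16.9% of DMSO. At 200 nM against 50 nM, 7 of the 30 were called lower and 0 higher, a share near the 21.9% of all genes, with a median of -1.05 beside -0.46. Among them were DSG3, a desmosomal cadherin, at -2.10 ± 0.54 (adjusted p = 0.0259, or 0.0767 under median-of-ratios scaling), and SFN, at -2.05 ± 0.36 (adjusted p = 0.00623). Under median-of-ratios scaling 5 of the 30 were called higher and 2 lower at 12 h (median 0.83), and 1 higher and 1 lower from 50 to 200 nM (-0.43). Without both KYSE510 libraries that stand apart, the median of the 30 was 0.01 at 12 h, beside -0.49 for all genes. From 50 to 200 nM it was -0.37, beside -0.41 for all genes. Of 36 differentiation genes 24 passed the filter, and at 12 h 3 were called lower (PPL, TGM1 and EVPL, all of the cornified envelope) and 0 higher, with a median of 0.11, beside 25.2% lower and a median of -0.42 for all genes. TGM1, transglutaminase of the envelope, differed by -1.87 ± 0.26 (adjusted p = 0.00249). At 200 nM against 50 nM 6 were called lower and 1 higher, ECM1, at 1.12 ± 0.27 (adjusted p = 0.0213), near the 21.9% lower and 2.94% higher of all genes. The scaling gave 1 lower and 5 higher at 12 h (median 0.57), with more calls higher than lower, and 3 lower and 1 higher from 50 to 200 nM (-0.31). With those KYSE510 libraries left out the median of the 24 was 0.19 at 12 h and -0.51 from 50 to 200 nM.

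Known epithelial targets of grainyhead factors were read beside GRHL2. Of 25 tested, 10 were called lower and 0 higher at 12 h, with a median of -0.68, beside 25.2% lower and a median of -0.42 for all genes. CLDN1, a tight junction claudin, differed by -2.51 ± 0.63 (adjusted p = 0.022), by -1.37 without both KYSE510 libraries that stand apart, and missed the threshold under median-of-ratios scaling (0.0575). TJP3, the tight junction protein ZO-3, differed by -2.32 ± 0.51 (adjusted p = 0.0133), and by -1.40 without those libraries. From 50 to 200 nM 9 were called lower and 0 higher, beside 21.9% and 2.94% of all genes, with CLDN4 at -2.72 ± 0.43 (adjusted p = 0.00418) and PRSS8, the protease prostasin, at -2.20 ± 0.24 (adjusted p = 0.00121). Under median-of-ratios scaling 5 were lower and 2 higher at 12 h (median -0.13), and 3 lower and 1 higher from 50 to 200 nM (-0.49). Without both KYSE510 libraries that stand apart, the median of the 25 was -0.71 at 12 h, beside -0.49 for all genes. From 50 to 200 nM it was -0.58, beside -0.41 for all genes. From 50 to 200 nM the values of the lines are given side by side, and their difference was not tested. In KYSE510, where GRHL2 was at 7.51 and 0.112 FPKM, 23 of the 25 were lower at 200 nM and 9 were lower by more than 2 on the log2 scale, with a median of -1.44. In TE7, where GRHL2 was at 7.72 and 7.21 FPKM, 18 were lower and 1 by more than 2, with a median of -0.66. Of all genes 69.1% were lower in KYSE510 and 71.7% in TE7, with medians of -0.45 and -0.40, so 18 of 25 is near the share of all genes in TE7. CLDN7 stood at 148.8 and 1.66 FPKM in KYSE510 at 50 and 200 nM, against 123.3 and 146.3 in TE7. RAB25 stood at 85.6 and 2.02 FPKM in KYSE510, against 75.2 and 75.6 in TE7, and AP1M2 at 55.2 and 1.72, against 46.8 and 50.3. EPCAM, on the same list, was higher at 200 nM in both lines, at 177.8 and 263.7 FPKM in KYSE510 and 134.1 and 182.4 in TE7. Other genes of the list were lower in TE7 too. CLDN4 differed by -3.4 in KYSE510 and -2.03 in TE7, PRSS8 by -2.48 and -1.92, and ELF3 by -1.63 and -1.7. CLDN1 differed by -0.05 in KYSE510 and -1.59 in TE7. These KYSE510 values come from the 200 nM library that also stands apart in KRT14, THY1 and CDH2, and its part in them was not tested.

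**Figure D4:**
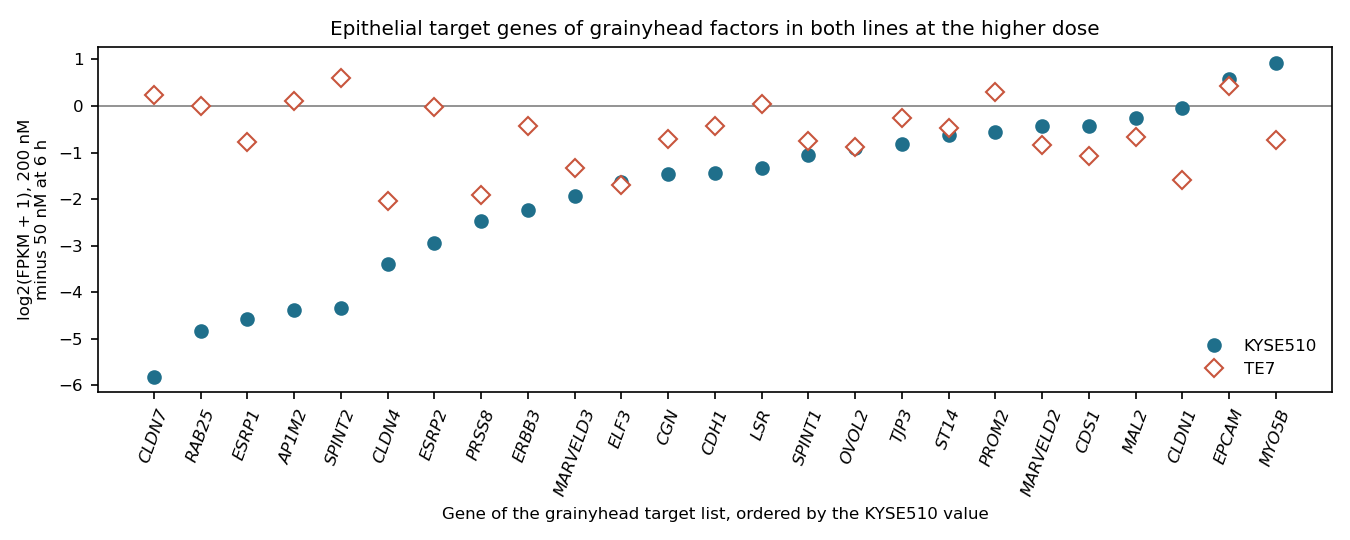
Difference in log2(FPKM + 1) between 200 and 50 nM at 6 h for the 25 grainyhead target genes, in KYSE510 (filled circles) and TE7 (open diamonds), 1 library per line and dose. CLDN7, RAB25, ESRP1, AP1M2 and SPINT2 lie below -4 in KYSE510 and above -1 in TE7, and the medians are -1.44 and -0.66.

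For other cell types, 5 of 16 columnar gland factors passed the filter. FOXA1, called lower at 12 h (-2.48 ± 0.51, adjusted p = 0.0104, or 0.0573 under median-of-ratios scaling), stood at 40.0 FPKM in DMSO and 2.13 at 12 h in KYSE510, and at 65.0 and 26.8 in TE7. Without both KYSE510 libraries that stand apart the median of the 5 at 12 h was -0.82, beside -0.49 for all genes. At 200 nM GATA6, FOXA1 and HNF4G were called lower against DMSO, and GATA6 (-2.17 ± 0.42, adjusted p = 0.00871) and FOXA1 (-2.41 ± 0.51, adjusted p = 0.0129) against 50 nM, where the median of the 5 was -1.28, beside -1.27 for the 9 squamous factors. CDX2, an intestinal factor, stood at 1.03 to 6.22 FPKM in the 4 KYSE510 libraries at 50 nM, at 0 in the library labelled KYSE510 DMSO and at 0.0302 in that labelled KYSE510 200 nM, and at most at 0.00431 in TE7. Of 17 mesenchymal genes 11 were tested and TWIST2 was called lower at 12 h (-1.26 ± 0.24, adjusted p = 0.00808), while under median-of-ratios scaling 0 were lower and 1 higher. The median of the 11 without both KYSE510 libraries that stand apart was -0.11, beside -0.49 for all genes. The summed mesenchymal level ran from 41.8 to 319.6 FPKM in KYSE510, highest in DMSO, and from 32.7 to 115.7 in TE7, and VIM stayed under 1 FPKM in all 12 libraries.

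Genes whose pattern was most like each factor were taken from those with a mean of at least 5 FPKM, by Pearson's r of log2(FPKM + 1) with each line's mean removed, over 12 libraries that share 6 conditions and 2 lines. For TP63 these were C1orf131 (0.991), KNSTRN (0.990) and RSPRY1 (0.987), and for TFAP2C they were SH2D4A (0.997), PRRG4 (0.993) and LRRC8D (0.988). GRHL2 was followed most closely by RXRB (0.990), BTN3A2 and CDK9 (both 0.982), and TFAP2A by EPB41L1 (0.983), SSH3 (0.982) and MINA (0.981). For KLF5 they were CDCA5 (0.989), KCTD2 (0.984) and TRUB1 (0.983), and for SOX2, with lower values, FAM168A (0.901), CBS (0.862) and VSNL1 (0.861). Without the library labelled KYSE510 DMSO, C1orf131 and KNSTRN stayed among the closest to TP63 (both 0.991), RXRB to GRHL2 (0.990) and SH2D4A to TFAP2C (0.997), and the closest genes of SOX2, KLF5 and TFAP2A were all others. GRHL1, GRHL3 and ZNF750 had a mean under 5 FPKM and were not searched. Among the factors, r was highest between TFAP2A and TFAP2C (0.95), followed by GRHL2 with TFAP2C and TP63 with GRHL3 (both 0.91), and SOX2 had at most 0.46 with any other, or 0.62 (with GRHL1) without the library labelled KYSE510 DMSO.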

How the data were processed

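Polyadenylated RNA from 12 libraries, 6 conditions in each of 2 cell lines, was extracted with an RNeasy kit and sequenced from TruSeq libraries on a HiSeq, per the labels' protocols. Per the file headers, each deposited table gives FPKM per gene with the authors' 95% bounds. STAR, Cufflinks and hg19 are named per the submitters' processing notes, without versions, settings or gene annotation; strand use was not stated. Tables have 57869 rows, and the 108 identifiers at several loci were summed. A table of the whole series was not used.

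The members and gene lists were chosen with earlier results of these data known, so their counts are not independent support. The 9 factors, at most 4 called genes per list and comparison, and label checks were to be named; ECM1, EPCAM, CDX2, RAB25, SPINT2, CLDN7 and AP1M2 in the text beyond that rule were chosen after their values were seen. Values were log2(FPKM + 1), and the 15610 genes that reached 1 FPKM in 2 or more libraries were fitted with limma 3.58.1 in R 4.3.3 (trend=TRUE), with condition terms and the cell line as block. This left 5 residual degrees of freedom plus 2.86 from the prior. The pairing comes from the cell line and holds by design. Nothing says that libraries came from separate cultures, so the p-values cover only how far these libraries spread. All tests were two-sided and adjusted by Benjamini-Hochberg over all genes, and the fits were tested on simulated data. The slope per hour used 10 libraries (6 residual degrees of freedom). Alternatives were a pseudocount of 0.1, no filter, median-of-ratios scaling, no block, leaving out each library, and leaving out those that stand apart. Leaving out 1 library leaves an arm with a lone sample, assumed to vary like the others. Sequences and starts are RefSeq's (GRCh38.p14), coordinates of genes the authors' (hg19, counted from 1).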

Additional observations from a re-analysis of the deposited data

Results flagged for a closer look

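SOX2, which passed in no comparison of conditions, had opposite signs in the lines at 50 nM. Against DMSO each of the 4 libraries was higher in KYSE510 and lower in TE7, and the mean log2 change differed by 3.57, KYSE510 minus TE7. The KYSE510 side is read against the DMSO library that stands apart from its line, each line has 1 DMSO library, and the difference was not tested. From 2 to 12 h, with no DMSO library, SOX2 was lower in both lines, by 2.66 in KYSE510 and by 0.02 in TE7. From 50 to 200 nM at 6 h SOX2 was higher by 1.82 in KYSE510, where the 200 nM library also stands apart, and lower by 1.43 in TE7, a gap of 3.25 between single libraries that was not tested.

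KLF5 was higher than DMSO in all 4 KYSE510 libraries at 50 nM and lower in all 4 of TE7, with a difference of 1.78 between the mean log2 changes that was not tested. In TE7 its 95% bounds at 2 and 12 h overlapped those of DMSO. The library labelled KYSE510 DMSO held 70.6 FPKM against 192.9 to 233.3 at 50 nM. ZNF750 showed the opposite signs, lower in KYSE510 and higher in TE7, with a difference of -0.65 that was not tested. The 95% bounds of ZNF750 overlapped those of DMSO at 2 and 4 h in KYSE510 and at 12 h in TE7. Conditions of 2 libraries, 1 per line, were too small to look for single outlying samples within a condition. The libraries that stand apart were seen by comparing libraries within a line.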

How the results depend on the processing

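Of 25 calls of a factor in a comparison, 9 were kept in every alternative: TP63 at 12 h and at 200 nM against DMSO, KLF5, GRHL3, TFAP2A and TFAP2C at 200 nM against DMSO, TFAP2C from 50 to 200 nM, and GRHL1 and ZNF750 between the lines. No called value changed sign (0 reversed). Of 56 values without a call, 16 were called in at least 1 alternative. The cause of the changes below was not tested. With a pseudocount of 0.1, genes called were 1, 5 and 427 at 2, 4 and 6 h against DMSO and 1 for the slope, and members at 12 h were 3. With no filter these were 17, 27, 405 and 20, and members were 2 at 12 h and 3 from 50 to 200 nM. Median-of-ratios scaling gave 1, 3 and 313 genes at 2, 4 and 6 h, 3788 at 200 nM against DMSO and 43 for the slope, and members of 1 at 12 h, 1 from 2 to 12 h, 5 at 200 nM and 2 from 50 to 200 nM. Without the 3 libraries that stand apart, genes called were 195, 1665, 3819 and 8166 at 2, 4, 6 and 12 h, 8609 from 2 to 12 h and 269 for the slope, with 3 members at 6 h and 6 from 2 to 12 h; that setting gives no value for 200 nM. Without both KYSE510 libraries that stand apart (added after the data were seen) they were 195, 1687, 3818 and 8172, 9423 at 200 nM, 7701 from 50 to 200 nM, 8608 from 2 to 12 h and 269 for the slope, with 3 members at 6 h, 9 at 200 nM, 7 from 50 to 200 nM, 6 from 2 to 12 h and 5 between the lines. Log2 hours gave 5 genes for the slope and the 50 nM libraries alone 956, and the line comparison without condition terms 4292.

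Without the block for the cell line that pairs the libraries, genes called were 0 at 2, 4 and 6 h, 1657 at 12 h, 2795 at 200 nM against DMSO, 1344 from 50 to 200 nM and 786 from 2 to 12 h. Members called without the block were 2 at 12 h and 2 from 50 to 200 nM (6 at 200 nM against DMSO, 2 from 2 to 12 h).

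Leaving out 1 library at a time, genes called ranged from 0 to 1717 at 2 h, 0 to 1991 at 4 h, 0 to 2556 at 6 h, 2000 to 5949 at 12 h, 882 to 5311 from 50 to 200 nM, 325 to 5008 from 2 to 12 h and 0 to 269 for the slope. The highest counts at 2, 4 and 6 h were those without the TE7 DMSO library. Members called ranged from 0 to 1 at 2 and 4 h, 0 to 3 at 6 h, 1 to 5 at 12 h, 1 to 6 from 50 to 200 nM, 0 to 4 from 2 to 12 h, 6 to 8 at 200 nM against DMSO and 2 to 5 between the lines. Low FPKM limits GRHL3 and ZNF750, whose 95% bounds at 200 nM reached 0 to 0.336 and 0.335 to 0.52 in TE7. It also limits GRHL2 and TFAP2C in the library labelled KYSE510 200 nM, with bounds of 0 to 0.3582 and 0.0985 to 0.3405.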
